A study of Homo sapiens with 2 samples.

Results

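The genes described here are the core machinery of autophagy and its cargo receptors, 37 genes listed by name. They cover the steps from the kinase that starts autophagosome formation to the proteins that select cargo. The list was chosen with earlier results of these data known. The genes were read in NUGC4, a human gastric cancer cell line, on 1 array of cells given an siRNA against ANO5 and 1 array of cells given a control siRNA. ANO5 encodes anoctamin 5, a membrane protein. Both cultures received siRNA at 20 nmol/l, transfected 24 h after seeding with the same lipid reagent, and the knockdown rests on a single siRNA product in a single cell line. Of the 37 genes, 36 had a named transcript cluster, the set of probes by which the array reads a gene, out of 14526 named genes, and each of the 36 had 1 cluster. MAP1LC3A had none here. A gene counted as measured when the mean of its deposited log2 signals lay at or above 6.05, the 33rd percentile of all named genes. This held for 34 of the 37 genes and for 9735 genes in all, while ULK2 and ATG16L2 lay below.

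Autophagy encloses cytoplasm in a double membrane, the autophagosome, which fuses with the lysosome. The ULK1 kinase complex starts the process and a class III phosphatidylinositol 3-kinase marks the site with the lipid PI3P. ATG9 vesicles and the lipid transfer protein ATG2 supply membrane, and a pair of ubiquitin-like conjugation systems attach ATG8 proteins (the LC3 and GABARAP families) to it. Cargo receptors bind both ubiquitin or another mark on the cargo and the ATG8 proteins. In epithelial and cancer cells the pathway is best known for recycling nutrients and removing damaged organelles.

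Each group is a single array, so that nothing measures the spread between cultures and no test was made. Differences are given as log2 signal in ANO5 siRNA cells minus that in control siRNA cells, and a gene is called higher or lower when it differs by at least 1.5-fold, which is 0.585 on the log2 scale. The siRNA's own target had a log2 signal of 3.67 in ANO5 siRNA cells and 6.83 in control siRNA cells, a difference of -3.16, although its mean lies below the measured range and the difference shrank to -2.18 with a pseudocount of 16. Over all measured genes the differences had a median of 0.07, and their 25th and 75th percentiles were -0.43 and 0.54. Among 9 markers of gastric epithelium, 8 were measured, of which 4 were higher (50%) and 0 lower, beside 23.2% and 20.1% of all measured genes. Their differences ran from -0.19 for KRT18 to 1.39 for CEACAM5. Of 15 markers of fibroblasts, blood and endothelium, 10 had a cluster, 4 were measured, and these 4 lay within 1.5-fold. The highest of them, COL1A2, read 7.92 in ANO5 siRNA cells and 8.03 in control siRNA cells. Counting as measured thus does not show that a gene is expressed, and values near this level may lie at background. Such values below include those of WIPI1, ATG2A, ATG2B and ATG4C and the control values of ATG10, ATG16L1 and ATG4B. Among the further genes read below they include those of ZFYVE1, MAP1LC3B2, TECPR1, RPTOR and FOXO4. The control values of NRBF2, SESN1, RRAGB and TFE3 and the ANO5 siRNA value of TEX264 also lie there. The part of the epithelial markers in the results below was not tested, and in bulk RNA a change in the number of cells of a kind cannot be told from a change in RNA per cell.

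Most of the autophagy genes were higher in ANO5 siRNA cells. Of the 34 measured members, 24 were higher by 1.5-fold and 2 were lower, whereas over all measured genes 23.2% were higher and 20.1% lower. Because the list was chosen with earlier results of these data known, this contrast is not independent of them. The members' median difference was 0.84, or 1.78-fold. Of the 34 differences 28 were above 0 (82.4%), beside 54.1% of all measured genes. Without the filter on level, 24 of the 36 genes with a cluster were higher and 3 lower, beside 18.6% and 16.6% of all named genes. At 2-fold, 11 measured members were higher and 1 lower, beside 11.2% and 11.3% of all measured genes. WIPI1 entered the measured range through its ANO5 siRNA value alone (6.53, against 5.90 in control siRNA cells), so its call is partly set by the filter. Of the measured members, the closest to the upper 1.5-fold line were ATG2B (0.62), WIPI1 (0.63) and GABARAPL2 (0.64) above it and SQSTM1 (0.53) below it. ATG4C (-0.64), 1 of the 2 lower members, lay as close to the lower line.

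**Figure D1:**
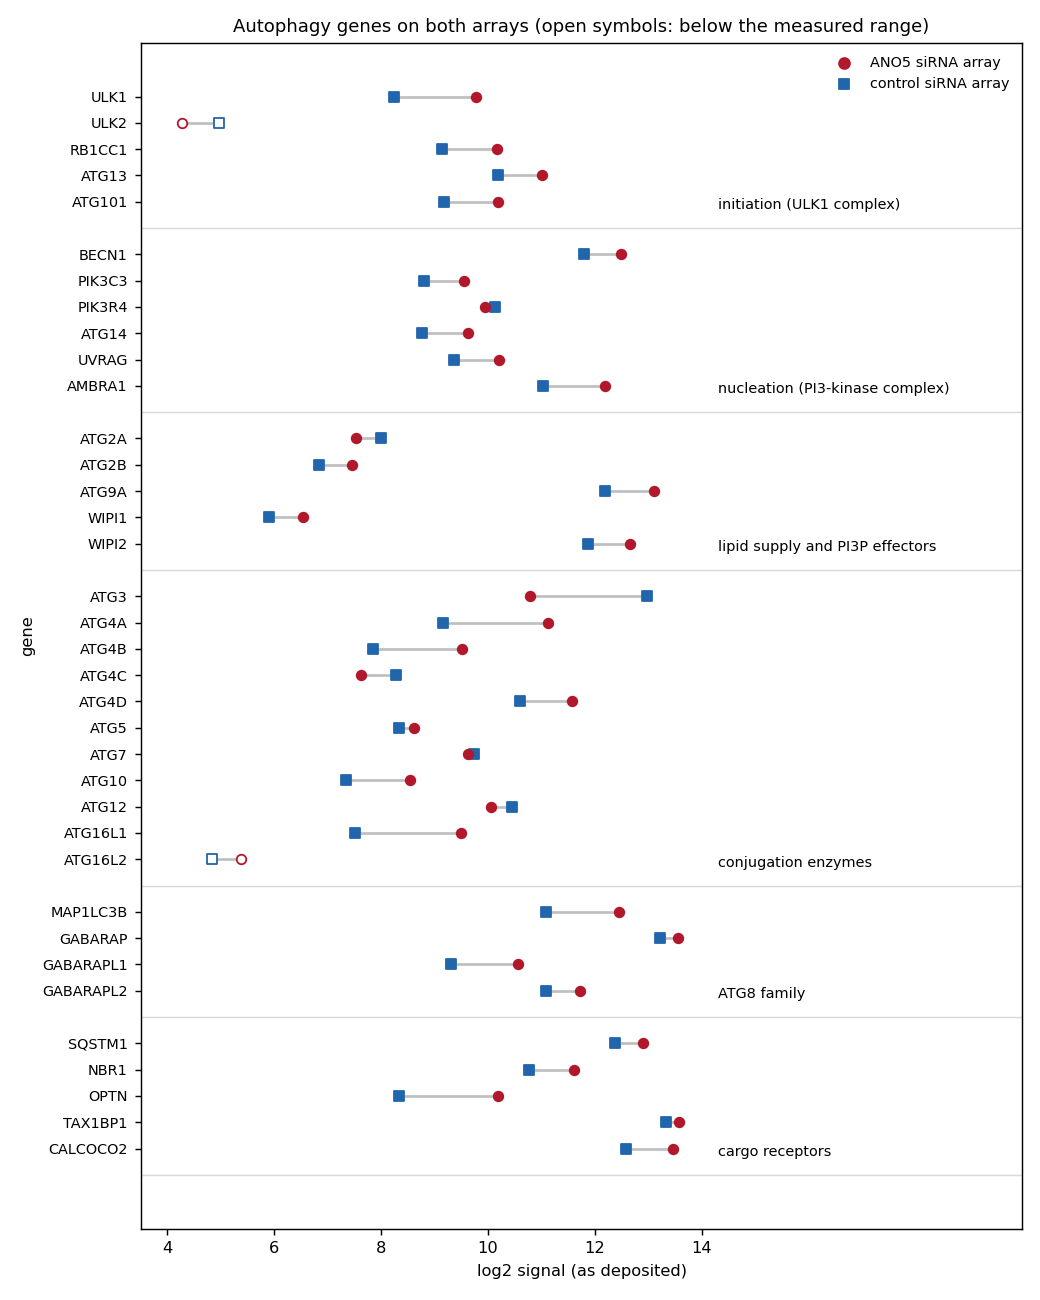
Log2 signal (horizontal axis, as deposited) of the 36 autophagy genes with a cluster, grouped by role, on the ANO5 siRNA array (red circles) and the control siRNA array (blue squares), 1 array each; grey lines join the values of a gene and open symbols mark ULK2 and ATG16L2. In 28 of the 34 measured genes the red circle lies to the right, as for 54.1% of all measured genes. ATG3 has the longest line in the opposite direction.

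The counts of each role below are to be read beside the 23.2% higher and 20.1% lower of all measured genes. Each role has only 4 to 10 measured genes. The measured initiation genes were all higher in ANO5 siRNA cells. ULK1, the kinase that starts autophagy, had a log2 signal of 9.78 in ANO5 siRNA cells and 8.25 in control siRNA cells, a 2.89-fold difference that 3.93% of all measured genes equalled or exceeded. RB1CC1 (FIP200), the scaffold of the complex, read 10.16 in ANO5 siRNA cells and 9.14 in control siRNA cells, 2.03-fold higher. ATG13, the adaptor that holds kinase and scaffold together, read 11.01 in ANO5 siRNA cells and 10.18 in control siRNA cells, 1.78-fold higher. All 3 genes, each for a different part of the complex, thus lay above their control values. ATG101, which stabilises ATG13, was 2.01-fold higher, with 10.19 in ANO5 siRNA cells and 9.18 in control siRNA cells. The 4 measured initiation genes had a median difference of 1.02. ULK2, the paralogue of ULK1, went the other way at a low level, with 4.27 in ANO5 siRNA cells and 4.97 in control siRNA cells. Because ULK2 lies below the measured range it is left out of the counts.

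Of the 6 genes of the nucleation complex, 5 were higher and 0 lower, with a median difference of 0.80. BECN1 (Beclin 1), the regulatory core subunit, read 12.48 in ANO5 siRNA cells and 11.80 in control siRNA cells. PIK3C3 (VPS34), the lipid kinase itself, read 9.56 in ANO5 siRNA cells and 8.81 in control siRNA cells. PIK3R4 (VPS15), its regulatory subunit, was the exception, with 9.94 in ANO5 siRNA cells and 10.13 in control siRNA cells. BECN1 and PIK3C3 were thus 1.60-fold and 1.68-fold higher, while the third shared subunit lay within 1.5-fold. ATG14 and UVRAG, the alternative subunits that direct the kinase to autophagosome formation or to endosomes, differed by nearly the same amount, 0.86 and 0.84. ATG14 read 9.62 in ANO5 siRNA cells and 8.76 in control siRNA cells, and UVRAG read 10.20 in ANO5 siRNA cells and 9.36 in control siRNA cells. The highest difference of this group was that of AMBRA1, a Beclin 1 partner and ubiquitin ligase adaptor, at 1.15, with 12.18 in ANO5 siRNA cells and 11.03 in control siRNA cells. BECN1 lay below the 1.5-fold line (0.55) after loess scaling on the mean level.

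Genes of membrane supply and PI3P reading were moderately higher. ATG9A, the lipid scramblase of the vesicles that seed the membrane, read 13.11 in ANO5 siRNA cells and 12.19 in control siRNA cells, 1.89-fold higher. WIPI2, the PI3P-binding protein that recruits ATG16L1, read 12.65 in ANO5 siRNA cells and 11.87 in control siRNA cells, 1.72-fold higher. The lipid transfer paralogues were split: ATG2B differed by 0.62 and ATG2A by -0.46. ATG2B read 7.46 in ANO5 siRNA cells and 6.84 in control siRNA cells, while ATG2A read 7.53 in ANO5 siRNA cells and 7.99 in control siRNA cells. In all, 4 of the 5 genes were higher and 0 lower, with a median of 0.63, and 0 of them reached 2-fold. ATG2B (0.56) and WIPI1 (0.52) dropped below 1.5-fold with a pseudocount of 16, the group's median with them (0.56).

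The conjugation enzymes, a group that also holds partner proteins such as ATG12 and ATG16L1, had the widest range of the 6 groups, from -2.18 to 1.98. They were also the largest group, with 10 measured genes against 4 to 6 in the others, and a range widens with the number of genes. The lower end was ATG3 alone, followed by ATG4C at -0.64. Of 10 measured genes, 5 were higher and 2 lower (50% and 20%, beside 23.2% and 20.1% of all measured genes), with a median of 0.63. That median lay below the 1.5-fold line after loess scaling (0.53), without the filter (0.54) and as a mean (0.47). ATG3, the E2-like enzyme that transfers ATG8 proteins to phosphatidylethanolamine, read 10.79 in ANO5 siRNA cells and 12.97 in control siRNA cells. This made it 4.53-fold lower, the only member past 2-fold in that direction, and 2.52% of all measured genes reached a difference this low. ATG7, the E1-like enzyme that loads both ATG3 and ATG10, barely differed, with 9.62 in ANO5 siRNA cells and 9.74 in control siRNA cells. Both differences were below 0, but only that of ATG3 passed 1.5-fold.

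ATG16L1, which positions the conjugation machinery on the membrane, had the highest difference of all members, 1.98, or 3.94-fold. It read 9.50 in ANO5 siRNA cells and 7.52 in control siRNA cells, and 163 of the 9735 measured genes differed by as much or more. Its partners in the complex, ATG5 and ATG12, both lay within 1.5-fold. ATG5 read 8.62 in ANO5 siRNA cells and 8.33 in control siRNA cells. ATG12, the ubiquitin-like protein joined to ATG5, read 10.05 in ANO5 siRNA cells and 10.44 in control siRNA cells. ATG10, the E2-like enzyme that makes this joint, read 8.54 in ANO5 siRNA cells and 7.35 in control siRNA cells, 2.28-fold higher. The paralogue ATG16L2 read 5.38 in ANO5 siRNA cells and 4.84 in control siRNA cells, below the measured range.

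The ATG4 cysteine proteases, which trim ATG8 proteins before conjugation and release them from membranes afterwards, were 4 genes with 3 higher and 1 lower. ATG4A read 11.12 in ANO5 siRNA cells and 9.16 in control siRNA cells, 3.89-fold higher. ATG4B, the protease with the broadest activity on ATG8 proteins, read 9.52 in ANO5 siRNA cells and 7.85 in control siRNA cells, 3.18-fold higher. ATG4D was 1.96-fold higher, with 11.57 in ANO5 siRNA cells and 10.60 in control siRNA cells. ATG4C was the exception and lay 1.56-fold lower, with 7.63 in ANO5 siRNA cells and 8.27 in control siRNA cells. ATG4A and ATG16L1 were the highest of all members and ATG3 the lowest, all of them in the wider conjugation group.

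**Figure D2:**
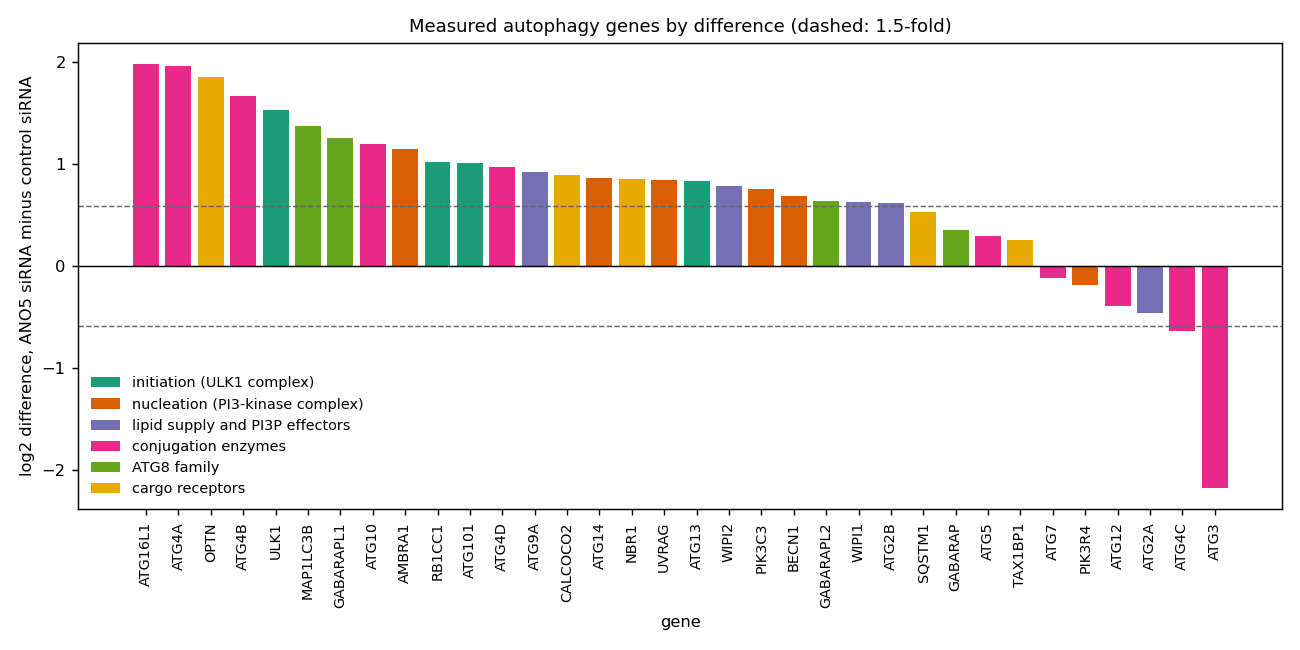
Log2 difference (ANO5 siRNA minus control siRNA, vertical axis) of the 34 measured autophagy genes in falling order, coloured by role, with dashed lines at 1.5-fold; each bar is 1 gene on 1 pair of arrays. Conjugation enzymes hold both ends, with ATG16L1 at 1.98 and ATG3 at -2.18.

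Because most members differed in one direction, the promoters were read for the E-box CACGTG, the centre of the element that TFEB and TFE3 bind in lysosomal and autophagy genes. The sequences are RefSeq's (GRCh38.p14), of which the 250 bases before each annotated start were searched on both strands, and 33 of the 37 members matched, 7 of them with more than 1 annotated start, each of which was read. CACGTG stood in 2 of these 33, ATG3 and ATG14, or 6.06%, beside 7.73% of all 27305 genes with a promoter. The longer palindrome TCACGTGA, which contains it, stood in 0 of the 33 and in 1.04% of all genes. TGTTTAC, a forkhead motif of FOXO factors, stood in CALCOCO2 alone, 3.03% of the members beside 3.66% of all genes. These shares rest on 2, 0 and 1 member genes, too few to place the members above or below all genes. A match is a string of letters, not a shown binding site. The promoters of the lowest member and of ATG14 are printed because they hold the E-box, in capitals, and those of the 2 highest members, ATG16L1 and ATG4A, because they do not. In ATG3 (chr3:112561963-112562212, minus strand) the E-box starts 18 bases before the annotated start, and in ATG14 (chr14:55411831-55412080, minus strand) 21 bases before it. ATG16L1 lies at chr2:233251423-233251672 and ATG4A at chrX:108091528-108091777, both on the plus strand. ATG3 and ATG14 differed in opposite directions (-2.18 and 0.86).
ATG3: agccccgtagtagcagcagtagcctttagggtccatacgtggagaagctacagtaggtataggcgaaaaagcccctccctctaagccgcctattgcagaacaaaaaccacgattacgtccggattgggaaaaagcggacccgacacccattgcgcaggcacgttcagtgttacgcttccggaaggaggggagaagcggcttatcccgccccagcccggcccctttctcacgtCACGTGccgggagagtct
ATG14: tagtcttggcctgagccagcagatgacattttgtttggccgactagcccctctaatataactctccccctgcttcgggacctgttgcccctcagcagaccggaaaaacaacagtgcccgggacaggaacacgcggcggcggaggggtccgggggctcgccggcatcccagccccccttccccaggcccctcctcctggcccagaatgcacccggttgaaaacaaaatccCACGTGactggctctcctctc
ATG16L1: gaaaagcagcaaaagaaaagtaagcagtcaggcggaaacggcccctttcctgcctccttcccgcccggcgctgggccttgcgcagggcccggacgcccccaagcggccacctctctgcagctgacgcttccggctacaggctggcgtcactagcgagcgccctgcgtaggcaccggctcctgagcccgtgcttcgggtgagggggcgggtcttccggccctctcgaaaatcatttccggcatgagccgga
ATG4A: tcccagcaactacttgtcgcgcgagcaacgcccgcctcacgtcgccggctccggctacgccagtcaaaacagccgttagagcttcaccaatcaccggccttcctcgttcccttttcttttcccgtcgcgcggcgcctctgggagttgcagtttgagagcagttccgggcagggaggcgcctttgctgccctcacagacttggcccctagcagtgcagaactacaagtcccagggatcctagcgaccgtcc

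Of the ATG8 family, 4 of 5 genes were measured, and 3 were higher and 0 lower, with a median of 0.95. MAP1LC3B, the LC3 protein most used as an autophagosome marker, read 12.45 in ANO5 siRNA cells and 11.08 in control siRNA cells, 2.58-fold higher. GABARAPL1 read 10.56 in ANO5 siRNA cells and 9.31 in control siRNA cells, 2.38-fold higher. GABARAPL2 (GATE-16) read 11.73 in ANO5 siRNA cells and 11.09 in control siRNA cells, 1.56-fold higher. GABARAP itself lay within 1.5-fold, with 13.56 in ANO5 siRNA cells and 13.21 in control siRNA cells. MAP1LC3B has a near-identical copy, MAP1LC3B2, whose cluster was also higher (0.83), and GABARAPL1 resembles the pseudogene GABARAPL3, so probes may share signal and both values are uncertain to that extent. GABARAPL2 dropped to 0.50 after loess scaling, below the line.

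All 5 cargo receptors had differences above 0, beside 54.1% of all measured genes, with a median of 0.85. By 1.5-fold 3 were higher and 0 lower, beside 23.2% and 20.1% of all measured genes. OPTN (optineurin), a ubiquitin-binding receptor for mitochondria and bacteria, read 10.18 in ANO5 siRNA cells and 8.33 in control siRNA cells. It was 3.60-fold higher, and 2.12% of all measured genes differed by as much or more. CALCOCO2 (NDP52), which also binds ubiquitin-coated bacteria and mitochondria, read 13.47 in ANO5 siRNA cells and 12.58 in control siRNA cells. NBR1, a receptor for protein aggregates and peroxisomes, read 11.61 in ANO5 siRNA cells and 10.76 in control siRNA cells. These last genes were 1.85-fold and 1.80-fold higher. SQSTM1 (p62), the receptor for ubiquitinated aggregates, read 12.90 in ANO5 siRNA cells and 12.37 in control siRNA cells, and TAX1BP1, a receptor related to CALCOCO2, read 13.58 in ANO5 siRNA cells and 13.33 in control siRNA cells. Both lay within 1.5-fold.

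**Figure D3:**
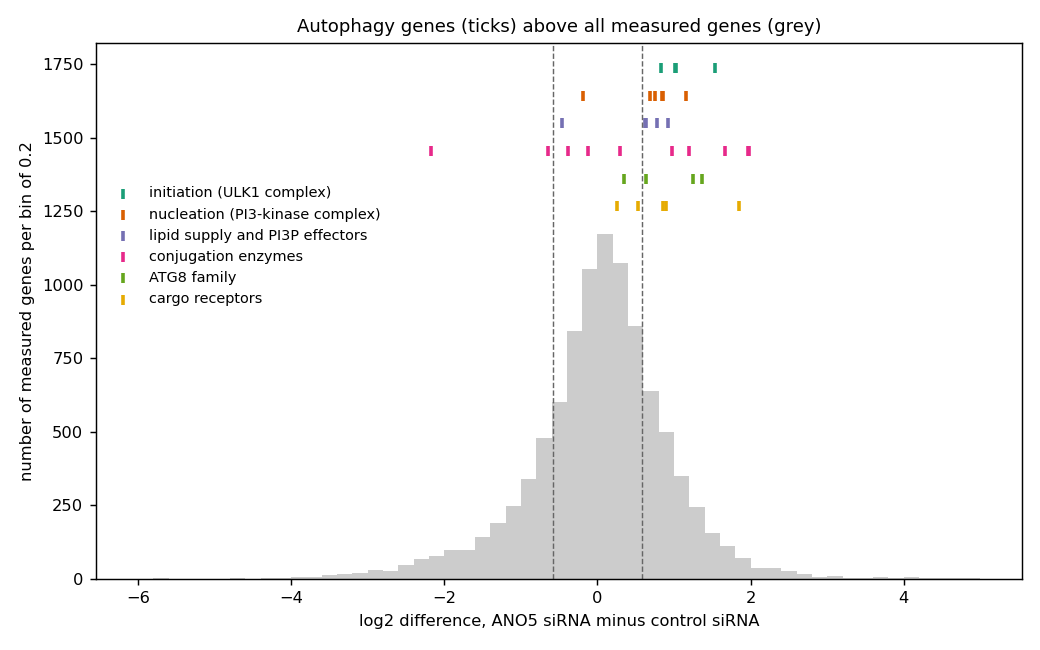
Number of measured genes (grey bars, vertical axis, bins of 0.2) by log2 difference (ANO5 siRNA minus control siRNA, horizontal axis), with the 34 measured autophagy genes as ticks above, 1 row for each role, and dashed lines at 1.5-fold. The ticks of 24 genes lie right of the upper line and those of ATG3 and ATG4C left of the lower line.

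Genes that work beside the core machinery were read in 5 further lists of 96 genes, of which 72 were measured. Of these, 40 were higher and 8 lower (55.6% and 11.1%), beside 23.2% and 20.1% of all measured genes. The counts of each list below are to be read beside the same shares of all measured genes. The lists were likewise chosen with earlier results of these data known. ZFYVE1, MAP1LC3B2, TECPR1 and RPTOR are among the 40, and these 4 entered the measured range through their ANO5 siRNA value alone. Among other early autophagy factors 4 of 8 measured genes were higher and 1 was lower. ZFYVE1 (DFCP1), a PI3P-binding protein of the sites where autophagosomes form, was 4.69-fold higher, with 7.20 in ANO5 siRNA cells and 4.97 in control siRNA cells. NRBF2, a subunit of the nucleation complex, was 2.95-fold higher (9.53 in ANO5 siRNA cells, 7.97 in control siRNA cells). WDR45B (WIPI3) was 2-fold higher, whereas TMEM41B, a lipid scramblase of the endoplasmic reticulum, was 1.91-fold lower. The median of this list (0.52) depended on the level filter, at 0.17 without one and -0.04 with the filter at the 50th percentile.

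Fusion of autophagosomes with lysosomes was represented by 12 measured genes, of which 8 were higher and 0 lower, with a median of 1.02. Without the level filter this median was 0.76. TECPR1, a tether at the lysosome, was 3.20-fold higher, with 7.22 in ANO5 siRNA cells and 5.54 in control siRNA cells, the last value under the level filter. The 5 measured subunits of the HOPS tethering complex were all higher and close together, from 1.10 for VPS11 to 1.35 for VPS18, with VPS39 at 1.30. The sixth subunit, VPS16, lay below the measured range and within 1.5-fold, with 4.82 in ANO5 siRNA cells and 4.45 in control siRNA cells. The other measured subunits, VPS33A and VPS41, read 13.02 and 13.91 in ANO5 siRNA cells and 11.84 and 12.68 in control siRNA cells. Of the SNARE proteins that carry out the fusion, VAMP8 was higher (0.93), and STX17 (-0.39), SNAP29 (-0.16) and YKT6 (-0.22) lay within 1.5-fold. The HOPS and SNARE genes beyond the leading ones were singled out after their values were seen.

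Of 19 measured receptors and partners of organelle autophagy, 10 were higher and 2 lower, with a median of 0.65. RETREG3, a receptor of the endoplasmic reticulum, was 2.91-fold higher, with 11.34 in ANO5 siRNA cells and 9.80 in control siRNA cells. NIPSNAP2 and FUNDC1, both of mitochondria, were 2.38-fold and 2.33-fold higher. The lower genes were TEX264, another receptor of the endoplasmic reticulum (-0.80), and BNIP3L (NIX), a mitochondrial receptor (-0.64). The median of this list fell to 0.54, below the 1.5-fold line, after loess scaling.

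Among mTORC1, AMPK and their regulators, which pass nutrient and energy state to ULK1, 16 of 30 measured genes were higher and 5 lower, with a median of 0.63. The share that was lower, 16.7%, is close to the 20.1% of all measured genes. SESN1, a sestrin that restrains mTORC1, was 3.94-fold higher, with 9.15 in ANO5 siRNA cells and 7.17 in control siRNA cells. FNIP2, a folliculin partner, was 3.07-fold and RRAGB, a Rag GTPase, 2.40-fold higher. Lower were PRKAG2, a regulatory subunit of AMPK (2.77-fold), AKT1S1 (PRAS40), an inhibitor of mTORC1 (2.03-fold), and RRAGA (1.58-fold). The list joins activators and inhibitors of autophagy, so its median has no single direction of action. Of the transcription factors of autophagy genes only 3 of 8 were measured: TFE3 and FOXO4 were higher (0.97 and 0.92) and FOXO3, named to complete the 3, lay at 0.16. Without the level filter the 7 factors with a cluster had a median of 0.14, beside 0.92 for these 3, and TFEB had no named cluster here.

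**Figure D4:**
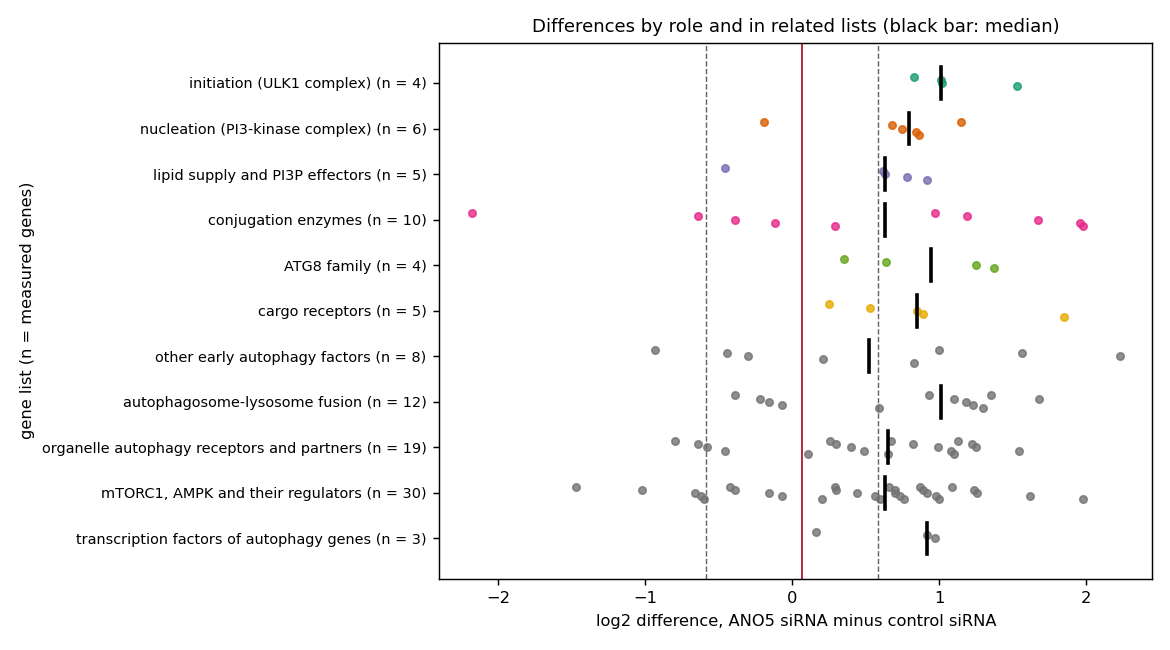
Log2 difference (ANO5 siRNA minus control siRNA, horizontal axis) of each measured gene (dots) in the 6 roles of the core machinery (coloured) and the 5 related lists (grey), with the list median as a black bar, the median of all measured genes (0.07) as a red line and dashed lines at 1.5-fold. All list medians lie right of the red line, from 0.52 to 1.02, and conjugation enzymes have the widest spread.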

How the data were processed

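RNA of 1 culture given an siRNA against ANO5 and 1 given a control siRNA was labelled with biotin and read on arrays. The deposited table holds 1 value for each of 17345 transcript clusters per array, from 2.13 to 18.15, which by their range were taken as log2 signal. Per the submitters' processing notes, Agilent Feature Extraction 12.0.3.1 was used, but the cluster identifiers look like those of a different array maker, so how the values were made is uncertain. How background and scale were set, the log base and the genome build are not given in the sources used, and no detection call was used, so a low value may lie at background. The arrays had medians of 7.68 (ANO5 siRNA) and 7.69 (control siRNA) and were used as deposited.

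Clusters were named from the platform's annotation, and of several clusters for a gene the one highest on average was kept. Differences are ANO5 siRNA minus control siRNA, and their precision is limited by the number of arrays, since 1 per group allows no test. Named genes were every member with a cluster, ANO5, and up to 3 measured genes each way past 1.5-fold from each related list. MAP1LC3B2, FOXO3, RPTOR and the other HOPS and SNARE genes were named outside this rule, after their values were seen. So were the markers KRT18, CEACAM5 and COL1A2. The members and lists were chosen with earlier results of these data known. Alternatives were 4 scalings (loess span 0.4), the median over clusters, no filter and one at the 50th percentile, a pseudocount of 16, thresholds of 2-fold and 3-fold, and means. The calculation was tested on simulated data with planted differences. Promoter windows of opposite strands that overlap were checked to be reverse complements (3088 of 3088). Python 3.11.15, numpy 2.4.6, pandas 2.3.3, statsmodels 0.14.6 and matplotlib 3.10.9 were used.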

Additional observations from a re-analysis of the deposited data

How the results depend on the processing

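No paired analysis was possible because each group is 1 array. The count of higher members was 24 as reported, 22 after loess and with the pseudocount, 21 with the filter at the 50th percentile (where 24.3% of all genes were higher and 20.6% lower), 11 at 2-fold and 4 at 3-fold (3.52% of all measured genes higher and 5.36% lower). That of lower members was 2 as reported, 3 without a filter and 1 with the filter at the 50th percentile, at 2-fold and at 3-fold. A larger threshold or a stricter filter lowers these counts by construction. After loess 19.9% of all measured genes were higher and 22.5% lower, and the median of all measured genes moved to -0.0062. The median over clusters could change no member, since each has 1 cluster, and is left out of the tallies that follow. Of 114 values of counts, medians and ANO5 under the other alternatives, 87 kept their side of 1.5-fold and moved by at most 0.1 on the log2 scale (counts by at most 1.5 times). The other 27 crossed the 1.5-fold line or moved further. No value past 1.5-fold as reported changed sign, but the median of other early factors, within 1.5-fold as reported (0.52), turned slightly negative under 1 filter. Loess moved the medians of the whole set to 0.71, conjugation enzymes to 0.53, the ATG8 family to 0.82, cargo receptors to 0.72, fusion genes to 0.88, organelle receptors to 0.54 and the mTORC1 and AMPK list to 0.51. Without a filter the conjugation median was 0.54, that of other early factors 0.17, of fusion genes 0.76 and of transcription factors 0.14. With the filter at the 50th percentile the medians were 0.85 for lipid supply, -0.045 for other early factors, 0.58 for the mTORC1 and AMPK list and 0.565 for transcription factors. The pseudocount gave 0.56 for lipid supply, 0.80 for transcription factors and -2.18 for ANO5. Means were 0.70 for the whole set, 0.68 for nucleation, 0.50 for lipid supply and 0.47 for conjugation. The filters change which genes enter a median, and the other causes were not tested. Of 180 values of single members, 157 stayed within these bounds, and 0 of those past 1.5-fold as reported changed sign. Centring on the median and 75th percentile scaling shift all differences alike. They moved the median of all measured genes from 0.07 only to 0.08 and 0.05. Hardly any value could move under them, yet both tallies count them.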
